A study of Arabidopsis thaliana with 8 samples.

Results

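The genes described are AGL42 and the other MADS-box genes of the Arabidopsis thaliana root, 10 genes chosen by locus from the 33201 rows of the authors' deposited table: AGL42, AGL71, AGL72, SOC1, AGL14, AGL19, AGL12, AGL17, AGL21 and ANR1. Every one of the 10 has a row of its own. RNA was sequenced from root cells of the Col-0 accession, which were protoplasted 5 days after germination and sorted for fluorescence of a WOX5::GFP reporter, a marker of the quiescent center (QC). One group was wild type (4 biological replicates) and the other the pan mutant (4 biological replicates), mutant in PERIANTHIA (PAN), a bZIP transcription factor of the TGA class; the sources used here do not name the allele. Plants of both groups carried the WOX5::GFP reporter. The table holds 1 pooled value per genotype, so no level below has an error, and replicate spread enters only through the authors' q-value.

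MADS-box factors of the MIKC type bind DNA through the MADS domain, pair with one another through the regions that follow it, and recognize CArG boxes, short A/T-rich elements flanked by CC and GG. Most are known from flower development and flowering time, and a smaller group is expressed mainly or also in the root. AGL42 belongs to that group: its reporter has served as a marker of the QC, and it has close relatives in SOC1, AGL14, AGL19, AGL71 and AGL72, which form the SOC1 clade. AGL17, AGL21 and ANR1 belong to the AGL17 clade, and AGL12 stands on a lineage of its own.

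The first coding exon of these genes encodes the MADS domain, and it is shown for the 5 genes that were expressed well enough to be tested, because it is what makes them 1 family and what could make their reads hard to tell apart. Each exon has 182 bases, read 5′ to 3′ on the coding strand from the RefSeq genome (assembly TAIR10.1); capitals mark the 88 bases (48.4%) that are the same in all 5.
AGL42 (chr5:24965075-24965256, plus strand): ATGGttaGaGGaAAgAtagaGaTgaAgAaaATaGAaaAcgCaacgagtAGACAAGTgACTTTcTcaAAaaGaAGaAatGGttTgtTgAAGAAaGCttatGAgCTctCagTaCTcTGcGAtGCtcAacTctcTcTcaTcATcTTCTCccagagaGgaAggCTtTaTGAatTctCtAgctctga
SOC1 (chr2:18810012-18810193, minus strand): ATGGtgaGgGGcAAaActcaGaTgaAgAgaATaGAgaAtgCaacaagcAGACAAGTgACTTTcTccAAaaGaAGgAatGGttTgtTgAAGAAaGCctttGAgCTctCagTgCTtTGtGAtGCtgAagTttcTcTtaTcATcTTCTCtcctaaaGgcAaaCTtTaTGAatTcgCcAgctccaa
AGL12 (chr1:26954758-26954939, minus strand): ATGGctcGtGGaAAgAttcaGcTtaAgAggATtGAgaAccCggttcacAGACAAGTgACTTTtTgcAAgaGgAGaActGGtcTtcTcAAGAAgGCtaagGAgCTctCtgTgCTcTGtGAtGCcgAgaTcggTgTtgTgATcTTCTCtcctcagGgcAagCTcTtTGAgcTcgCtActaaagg
AGL17 (chr2:9618372-9618553, plus strand): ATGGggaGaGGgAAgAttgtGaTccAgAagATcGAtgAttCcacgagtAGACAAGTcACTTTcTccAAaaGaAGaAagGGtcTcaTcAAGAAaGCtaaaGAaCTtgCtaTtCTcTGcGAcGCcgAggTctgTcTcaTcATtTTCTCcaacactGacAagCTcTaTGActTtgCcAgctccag
AGL21 (chr4:17838440-17838621, minus strand): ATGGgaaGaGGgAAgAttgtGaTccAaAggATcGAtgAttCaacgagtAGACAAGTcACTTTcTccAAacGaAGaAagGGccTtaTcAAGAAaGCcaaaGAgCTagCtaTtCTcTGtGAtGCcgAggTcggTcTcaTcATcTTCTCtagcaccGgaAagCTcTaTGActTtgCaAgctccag

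AGL17 and AGL21 were the most alike of these exons, with 89.0% identical bases, and AGL42 and SOC1 shared 81.3%. AGL42 and AGL12 shared 64.8% of this exon. Over the whole coding sequence, identity between the 45 pairs of the 10 genes ran from 60.3% to 80.7%, with a median of 63.3%. The highest values were those of AGL14 with AGL19 (80.7%), AGL17 with AGL21 (80.6%) and AGL71 with AGL72 (75.2%), which lie next to each other on chromosome 5. For each gene only the transcript with the longest coding sequence was compared. The longest run of identical bases that any 2 of these transcripts shared was 29 bases, between AGL42 and AGL14. The read length is not given in the sources used here, so how many reads could have been split between relatives cannot be stated. No other annotated gene overlaps any of the 10 in the RefSeq annotation, so no annotated neighbour shares their reads by position.

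Of the 10 genes, 5 stood above 1 FPKM in wild type, and 3 of these were several times lower in the pan mutant. AGL42, SOC1 and AGL12 fell, and AGL17 and AGL21 did not pass the test. By the authors' deposited table, 5 of the 10 were tested, 3 were called lower in pan at q under 0.05 and 0 were called higher (Cuffdiff; at an unadjusted p under 0.05 the counts are 4 lower and 0 higher). Over all 19789 tested genes the authors' deposited table called 17.8%, with 9.83% lower and 8.01% higher. Among the 8897 tested genes whose wild type level lay within the range of the 5 tested members (7.28 to 53.3 FPKM), it called 14.6% lower and 7.89% higher. With 5 tested genes, 3 calls is a count to be read as a description. No share of all tested genes was computed at an unadjusted p under 0.05. Counts at that threshold, here and below, are a description only.

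The identity markers of the sorted cells differed between the genotypes as well. The sort marker's gene WOX5 stood at 205 FPKM in wild type against 8.27 FPKM in the mutant by the authors' deposited table, and the targeted gene PAN at 20.0 FPKM against 0.265 FPKM. All 8 stem cell niche markers (WOX5, PLT1, PLT2, BBM, SCR, SHR, MYB56 and RGF1) were called lower in the authors' deposited table (summed level 678 FPKM in wild type against 60.0 FPKM in the mutant), and all 5 root cap markers (SMB, BRN1, BRN2, FEZ and CEL5) were called lower (576 FPKM against 208 FPKM). Of 8 epidermis and root hair markers, 4 (RSL4, EXPA7, EXPA18 and ADF8) were called higher and 0 lower in the authors' deposited table (476 and 1502 FPKM). Of 6 endodermis markers CASP1 was called higher (124 and 286 FPKM). Of 8 stele markers with a row 6 were tested, and ATHB8 and CVP2 were called lower and WOL higher in the authors' deposited table. The stele sum (68.8 and 76.0 FPKM over the 8) was carried in pan mostly by WOL (28.1 and 70.8 FPKM). Of the 6 tested stele markers 5 had a negative log2 change of pan over wild type, with a median of -2.03 over the 6. No marker of these lists with a row was listed at 0 in either genotype. The part of the makeup of the sorted cells in the lower levels of AGL42, SOC1 and AGL12 was not tested.

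AGL42 lies on chromosome 5 (24964700 to 24968520, TAIR10, plus strand) and is known, besides its QC expression, for promoting flowering and delaying the senescence of floral organs. The authors' deposited table gave AGL42 (AT5G62165) 20.8 FPKM in wild type against 1.70 FPKM in the mutant, where FPKM is fragments per kilobase of transcript, scaled to the number of mapped fragments. The log2 change of pan over wild type in the authors' deposited table was -3.61 (12.2-fold lower, q = 0.00524). Only 2.15% of the tested genes with a finite change had a lower log2 change than AGL42. In wild type its level exceeded that of 78.9% of all rows, and in pan that of 52.4%. In bulk RNA, fewer cells of a type and less RNA per cell cannot be told apart, which holds for each value here.

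SOC1 integrates signals that start flowering, and is the best known relative of AGL42. It lies on chromosome 2 (18807538 to 18811047, minus strand). The authors' deposited table gave SOC1 (AT2G45660) 10.2 FPKM in wild type against 2.02 FPKM in the mutant. Its log2 change in the authors' deposited table was -2.33 (5.03-fold lower, q = 0.0293). The level of AGL42 was 2.04 times that of SOC1 in wild type and 0.842 times in pan, so the order of the 2 levels differed between genotypes. Whether that difference exceeds the spread between libraries was not tested, since the table holds no values per library.

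The remaining members of the SOC1 clade were barely detected, at no more than 0.292 FPKM in either genotype. AGL14 (XAANTAL2), known for its part in auxin transport and in the root stem cell niche, was listed at 0.292 FPKM in wild type against 0.0569 FPKM in the mutant in the authors' deposited table. AGL72 was listed at 0.188 FPKM in wild type against 0.0568 FPKM in the mutant in the authors' deposited table. AGL71, which acts with AGL42 and AGL72 in the flowering of axillary meristems, was listed at 0 in wild type against 0.0237 FPKM in the mutant in the authors' deposited table. AGL19, a flowering gene of the vernalization response, was listed at 0 in wild type against 0.220 FPKM in the mutant in the authors' deposited table. The authors tested none of these 4 genes. Summed over its 6 genes, the SOC1 clade stood at 31.4 FPKM in wild type against 4.08 FPKM in the mutant, a 7.69-fold difference carried almost wholly by AGL42 and SOC1.

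The lowest measurable level differed between the genotypes, if the lowest deposited values stand for about 1 fragment. The lowest products of FPKM and transcript length, taken as the worth of about 1 fragment, were 10.1 times higher in wild type than in pan. By that reading 1 fragment was worth 0.0385 FPKM for AGL71 in wild type, and its level in pan was 0.616 times that, so a level like that in pan could have gone unseen in wild type. For AGL19 the level in pan was 7.67 times the worth of 1 wild type fragment. The level of AGL14 in wild type was 12.4 times that worth, against 946 times for AGL42. These ratios assume that the effective length used by the authors is close to the longest RefSeq transcript.

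AGL12 (XAANTAL1), known for promoting cell proliferation in the root meristem and flowering, had the lowest log2 change of the tested members. It lies on chromosome 1 (26952645 to 26955127, minus strand). The authors' deposited table gave AGL12 (AT1G71692) 7.28 FPKM in wild type against 0.465 FPKM in the mutant. Its log2 change in the authors' deposited table was -3.97 (15.7-fold lower, q = 0.0243). Of the tested genes with a finite change, 1.42% had a lower one.

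The AGL17 clade held the most abundant member. AGL21, which is known to promote lateral root development and auxin synthesis, lies on chromosome 4 (17835572 to 17838621, minus strand). The authors' deposited table gave AGL21 (AT4G37940) 53.3 FPKM in wild type against 24.9 FPKM in the mutant. Its log2 change in the authors' deposited table was -1.10 (p = 0.0346, q = 0.126), and it was not called. AGL17, a root MADS-box gene also known to promote flowering, lies on chromosome 2 (9618372 to 9621957, plus strand). The authors' deposited table gave AGL17 (AT2G22630) 20.1 FPKM in wild type against 16.3 FPKM in the mutant, with a log2 change of -0.30 (q = 0.748). AGL17 and AGL42 thus stood at nearly equal levels in wild type, whereas in pan the level of AGL17 was 9.58 times that of AGL42. ANR1 (AGL44), known for the growth of lateral roots into nitrate-rich soil, was listed at 0.122 FPKM in wild type against 0.198 FPKM in the mutant in the authors' deposited table and was not tested.

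In wild type the order of levels was AGL21, AGL42, AGL17, SOC1 and AGL12, followed by AGL14, AGL72 and ANR1 below 1 FPKM and by AGL71 and AGL19 at 0. In pan the order was AGL21, AGL17, SOC1, AGL42 and AGL12, and then AGL19, ANR1, AGL14, AGL72 and AGL71. With pooled values it cannot be said which neighbours in these orders differ beyond their spread. The plot of member levels shows both orders, gene by gene.

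**Figure D1:**
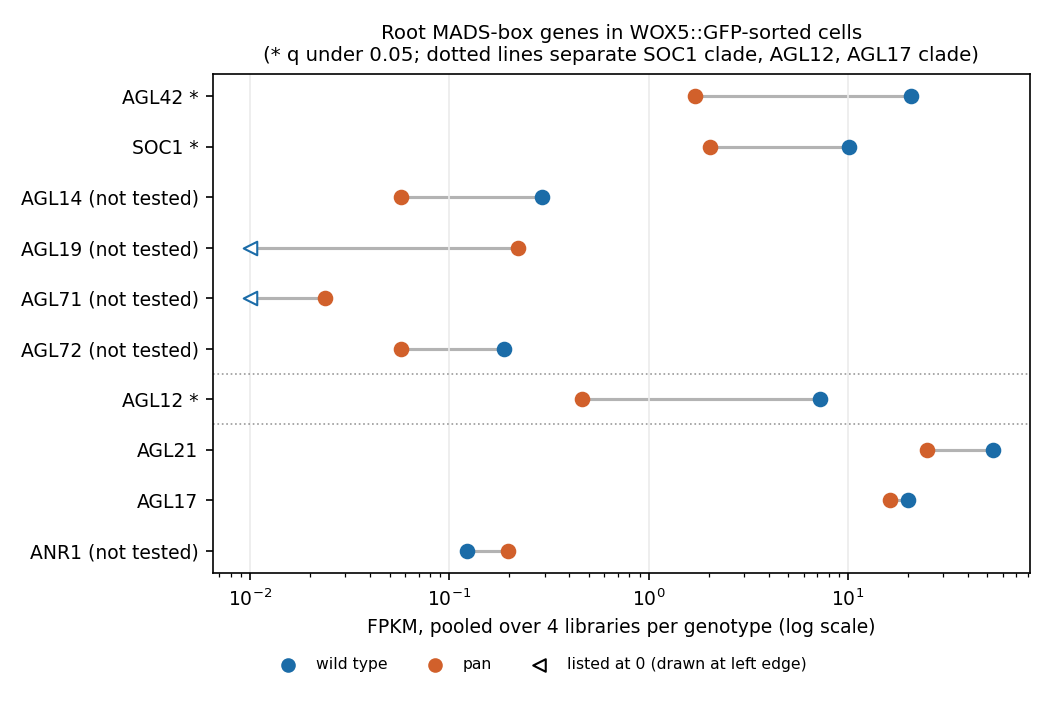
Level of each of the 10 root MADS-box genes in wild type (blue) and pan (orange), as pooled FPKM on a log axis from the authors' deposited table; triangles at the left edge stand for genes listed at 0, and a star marks q under 0.05. AGL42 (20.8 to 1.70), SOC1 (10.2 to 2.02) and AGL12 (7.28 to 0.465) have long lines, AGL17 (20.1 to 16.3) a short one, and the 5 genes without a test lie below 1 FPKM in both genotypes.

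The summed level of the 10 genes was 112 FPKM in wild type against 45.9 FPKM in the mutant, a 2.44-fold difference. AGL42, SOC1 and AGL12 together made up 34.1% of that sum in wild type and 9.13% in pan. AGL17, AGL21 and ANR1 made up 65.5% in wild type and 90.1% in pan, although their own sum was 1.78 times lower in pan (73.5 and 41.4 FPKM). With AGL16, the other gene of their clade, which is not among the 10, the sum was 91.5 FPKM in wild type against 72.9 FPKM in the mutant, a 1.25-fold difference. AGL42 alone went from 18.5% to 3.71% of the sum. These shares have no test, since they rest on 1 pooled value per gene and genotype.

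**Figure D2:**
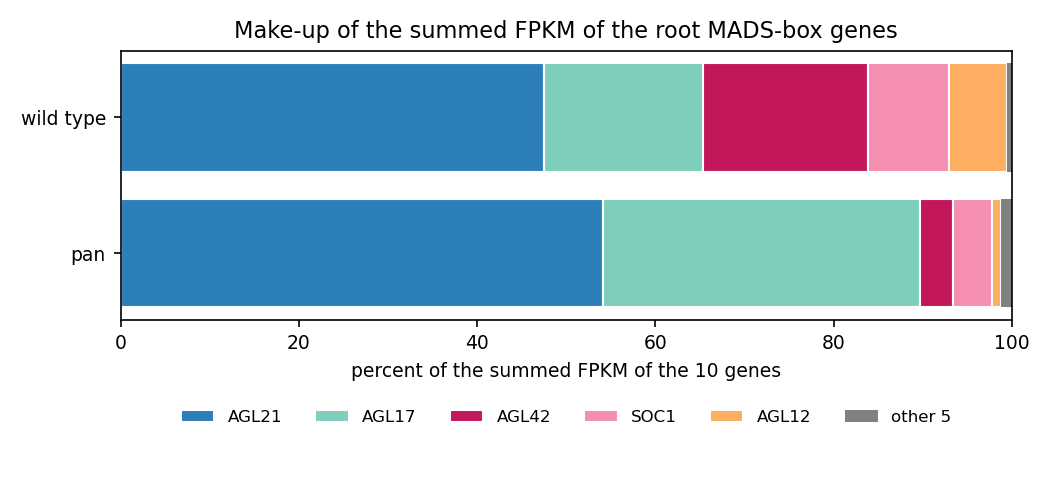
Share of each gene in the summed FPKM of the 10 root MADS-box genes, in percent, with 1 bar per genotype. AGL21 and AGL17 fill 65.4% of the wild type bar and 89.7% of the pan bar, and AGL42, SOC1 and AGL12 shrink from 34.1% to 9.13%.

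The log2 change was below 0 for each tested member, and its median over the 5 was -2.33. Over the 19590 tested genes with a finite change the median was -0.17 and 55.2% were negative. Among the 8893 of these within the members' range of wild type levels the median was -0.24 and 58.6% were negative. AGL17 lay near the middle of all tested genes, with 46.1% of them lower, and AGL21 had 26.1% of them lower. SOC1 had 8.79% of them lower.

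**Figure D3:**
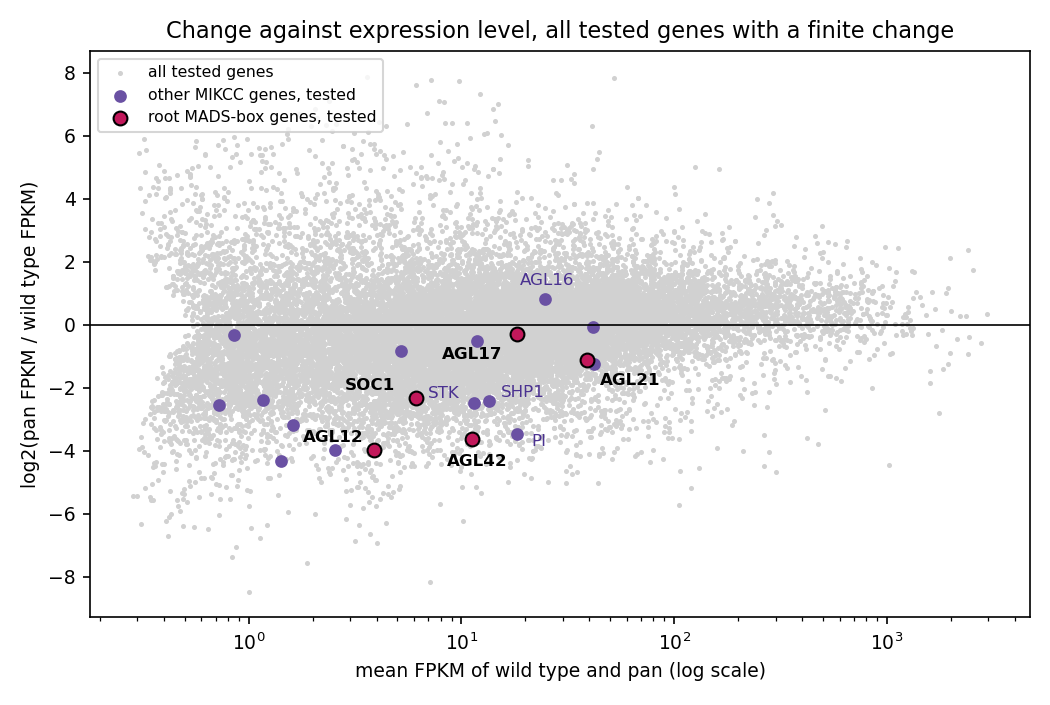
Log2 of pan over wild type FPKM against the mean FPKM of both (log axis), for all tested genes with a finite change (grey), the 5 tested root MADS-box genes (red) and the 14 tested MIKCC genes outside the set (purple), from the authors' deposited table. AGL42 (-3.61) and AGL12 (-3.97) lie low in the cloud, with 2.15% and 1.42% of the grey genes lower at any level. SOC1 (-2.33) lies below the middle of the cloud, and AGL17 (-0.30) and AGL21 (-1.10) lie closer to that middle.

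The 3 tested genes nearest to AGL42 in level in both genotypes were AT3G05330 (ATN), NAC089 and AT2G22610, by Euclidean distance over log2(FPKM + 1) in wild type and pan. The authors' deposited table gave ATN 20.9 and 1.66 FPKM, NAC089 21.6 and 1.71 FPKM, and AT2G22610 21.2 and 1.57 FPKM in wild type and pan. A likeness over 2 pooled values is a weak one.

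The other genes of the family were read from a list of 29, which together with the members makes up the 39 MIKCC genes of Arabidopsis, the classical MIKC type. PI, SHP1 and STK, all known from flowers, were lower in the mutant root cells. By the authors' deposited table, 14 of the 29 were tested, 3 were called lower and 0 higher (Cuffdiff; 6 lower and 0 higher at an unadjusted p under 0.05), beside 9.83% of all tested genes called lower. The median log2 change of the 14 was -2.40, and 13 were negative. Over the whole family, 19 of 39 genes were tested, 6 were called lower by the authors' deposited table and 18 had a log2 change below 0. The 20 genes left without a test reached at most 0.434 FPKM in wild type and at most 0.388 FPKM in the mutant.

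PI (PISTILLATA) specifies petals and stamens together with its partner AP3. The authors' deposited table gave PI 33.5 FPKM in wild type against 3.06 FPKM in the mutant (log2 -3.45, q = 0.00273). AP3 itself was listed at 0.150 FPKM in wild type against 0.382 FPKM in the mutant in the authors' deposited table and was not tested. SHP1, which shapes the margins at which the fruit opens, had 22.6 FPKM in wild type against 4.24 FPKM in the mutant in the authors' deposited table (log2 -2.41, q = 0.0186). STK, which gives ovules their identity, had 19.4 FPKM in wild type against 3.51 FPKM in the mutant in the authors' deposited table (log2 -2.47, q = 0.0251). Their relatives AG and SHP2 were at no more than 0.129 FPKM in either genotype by the authors' deposited table. In wild type, then, PI, SHP1 and STK stood at levels like those of AGL42 and AGL17.

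AP3, AG, SHP2, MAF1, MAF2, MAF4, MAF5, AGL15 and AGL16, like YUC5, FT and GI further on, are not among the genes called and were chosen for naming after their values were seen. MAF1, a repressor of flowering, was the most abundant MIKCC gene of wild type by the authors' deposited table (59.0 FPKM, with 24.9 FPKM in pan, q = 0.0862). Its relative MAF2 was at 42.5 FPKM in wild type against 40.9 FPKM in the mutant in the authors' deposited table (q = 0.946). MAF2 to MAF5 lie side by side on chromosome 5 and resemble each other, so reads may have been split between them. MAF5 lay just outside the threshold, at 2.91 and 0.321 FPKM in the 2 genotypes (wild type first) by the authors' deposited table (q = 0.0505). MAF4, at 2.69 and 0.134 FPKM in the 2 genotypes (wild type first), had the lowest log2 change of the tested MIKCC genes, -4.33. Even so, the authors' deposited table did not call MAF4 (q = 0.381). AGL15, known from embryos, had 4.80 and 0.303 FPKM in the 2 genotypes (wild type first) by the authors' deposited table (q = 0.0618). AGL16, the fourth gene of the AGL17 clade, was the 1 tested MIKCC gene with a positive log2 change, at 18.0 and 31.5 FPKM in the 2 genotypes (wild type first) by the authors' deposited table (log2 0.81, q = 0.274).

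**Figure D4:**
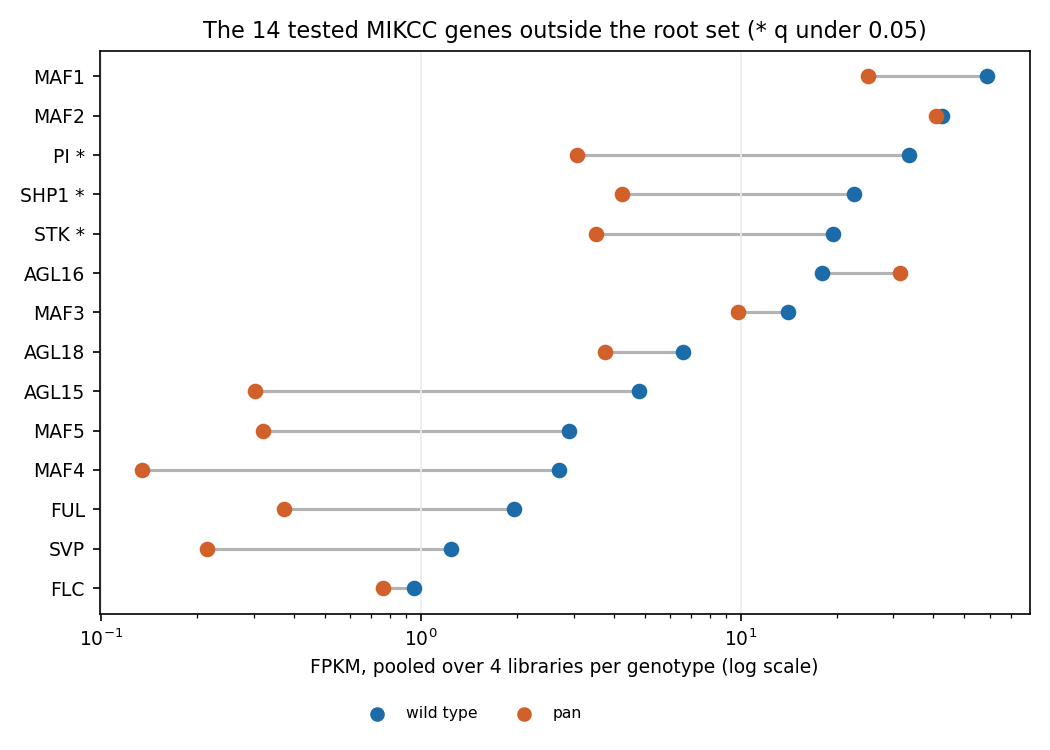
Level of the 14 tested MIKCC genes outside the root set in wild type (blue) and pan (orange), as pooled FPKM on a log axis from the authors' deposited table, ordered by wild type level; a star marks q under 0.05. PI (33.5 to 3.06), SHP1 (22.6 to 4.24) and STK (19.4 to 3.51) carry stars, and AGL16 alone has its pan point to the right.

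The MIKC* genes, a separate branch of the family known from pollen, showed no call. Of 6, 3 were tested in the authors' deposited table and 0 were called in either direction (Cuffdiff, also 0 at an unadjusted p under 0.05). Over all tested genes 17.8% were called in either direction, so 0 calls among 3 tested genes is a description only. The most abundant, AGL30, had 7.17 FPKM in wild type against 6.93 FPKM in the mutant in the authors' deposited table (q = 0.964).

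Some auxin genes have been tied to these factors, AGL14 to the efflux carrier PIN4 and AGL21 to auxin synthesis genes of the TAA and YUC families. Such genes are given one by one, with no count or median over them, and are read beside the 9.83% of all tested genes called lower. In the authors' deposited table PIN4 fell to 40.8 FPKM from a wild type level of 201 FPKM (4.94-fold, q = 0.00116). AGL14 was at 0.292 FPKM in wild type against 0.0569 FPKM in the mutant, without a test. The part of AGL14 in the level of PIN4 was not tested. TAA1, which makes the auxin precursor from tryptophan, fell to 38.9 FPKM from a wild type level of 98.1 FPKM in the authors' deposited table (2.52-fold, q = 0.00719). YUC8, a flavin monooxygenase of the next step, fell to 15.2 FPKM from a wild type level of 57.3 FPKM in the authors' deposited table (3.76-fold, q = 0.00116). YUC5 was not called, at 8.88 and 6.33 FPKM in the 2 genotypes (wild type first) by the authors' deposited table (q = 0.637). The part of AGL21, itself not called, in the levels of TAA1, YUC8 and YUC5 was not tested.

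Of 5 genes of the nitrate response around ANR1, 4 were tested, 1 was called higher and 0 lower in the authors' deposited table (Cuffdiff; 2 higher and 0 lower at an unadjusted p under 0.05), beside 8.01% of all tested genes called higher, with a median log2 change of 0.69. NLP7, a transcription factor that senses nitrate, rose to 28.7 FPKM from a wild type level of 12.9 FPKM in the authors' deposited table (2.23-fold, q = 0.0371).

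Of 8 genes of the flowering network around SOC1, 2 were tested in the authors' deposited table, and 1 of them, FD, was called lower, beside 9.83% of all tested genes. FD, the bZIP partner of the florigen FT in the shoot apex, fell to 1.86 FPKM from a wild type level of 25.3 FPKM in the authors' deposited table (13.6-fold, q = 0.00340). FT was listed at 0.635 FPKM in wild type against 0.0732 FPKM in the mutant in the authors' deposited table, without a test. GI, a clock-linked gene upstream of FT, stood at 12.4 and 12.6 FPKM in the 2 genotypes (wild type first) by the authors' deposited table (q = 0.975).

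**Figure D5:**
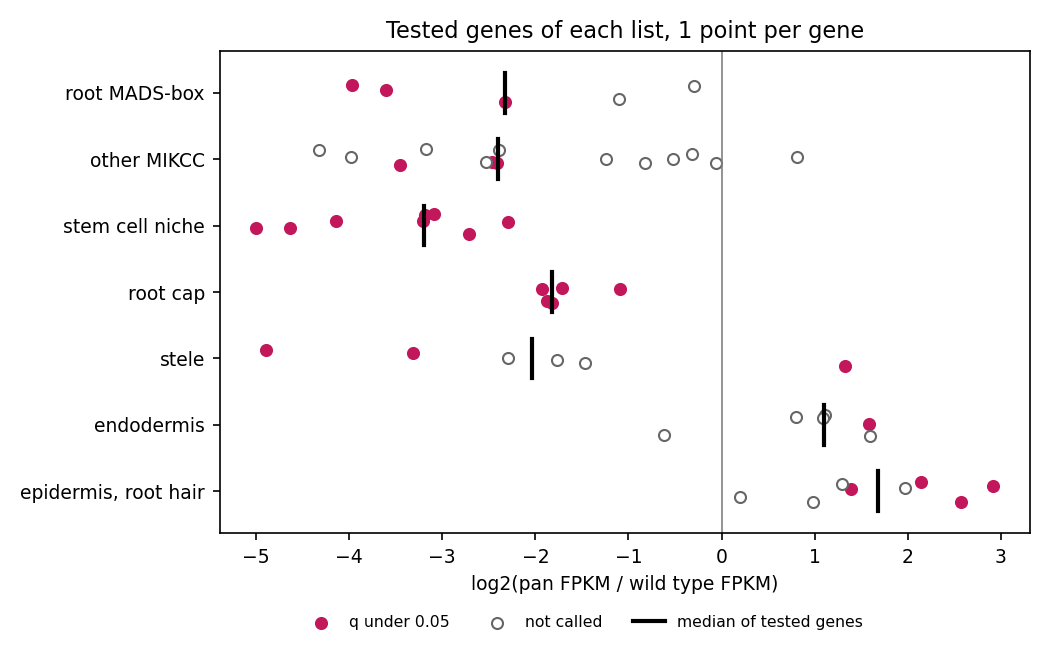
Log2 of pan over wild type FPKM for each tested gene of 7 lists, 1 point per gene (red, q under 0.05; open, not called), with the median of each list as a black bar, from the authors' deposited table; the vertical position within a list is random. The median was -2.33 for the root MADS-box genes and -2.40 for the other MIKCC genes. Medians of the stem cell niche (-3.20), stele (-2.03) and root cap (-1.83) markers were negative as well. Of the 6 tested stele markers 5 had a negative change. The medians of the epidermis and root hair (1.68) and endodermis markers were positive.

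Sequence upstream of the genes was searched for 2 motifs on both strands, in the 1000 bases before the RefSeq start of each gene. TGACG is the core bound by TGA-class bZIP factors such as PAN, and the CArG box is the element that MADS-box factors bind, searched as CC, then 6 bases of A or T, then GG. A TGACG match lay before 4 of the 10 genes, against 54.1% of 27443 protein-coding genes. A CArG box lay before 3 of the 10, against 7.21% of all protein-coding genes. Those 3 were AGL42, SOC1 and AGL21. For each of them the RefSeq start lies upstream of the gene start given earlier, so the distances below do not count from that coordinate. Counted from the start given earlier for AGL21, its CArG box lies more than 1000 bases away, outside the window. Those 3 CArG boxes and the TGACG match of AGL42 are shown with 25 bases on each side, 5′ to 3′ on the gene's strand (RefSeq, TAIR10.1), with the motif in capitals, because they lie before members that were tested. The TGACG matches before AGL14, AGL19 and AGL71, which were not tested, are not shown.
AGL42, TGACG, 752 to 748 bases before the start (chr5:24963869-24963923, plus strand): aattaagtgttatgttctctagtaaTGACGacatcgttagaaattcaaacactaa
AGL42, CArG box, 598 to 589 bases before the start (chr5:24964023-24964082, plus strand): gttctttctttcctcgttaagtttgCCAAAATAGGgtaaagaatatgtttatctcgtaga
SOC1, CArG box, 711 to 702 bases before the start (chr2:18811802-18811861, minus strand): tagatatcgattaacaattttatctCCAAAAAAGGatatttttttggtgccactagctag
AGL21, CArG box, 672 to 663 bases before the start (chr4:17839607-17839666, minus strand): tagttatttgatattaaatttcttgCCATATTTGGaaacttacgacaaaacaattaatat

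Among the tested members, AGL42 had both motifs in this window, SOC1 and AGL21 had a CArG box alone, and AGL12 and AGL17 had neither. Any link between these matches and the levels in pan was not tested. A match is a run of letters, and no binding was measured in these samples.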

How the data were processed

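RNA sequencing was done on WOX5::GFP-sorted root cells, with 4 wild type and 4 pan mutant libraries made with a SMARTer low-input kit, per the labels' protocols. The tools were TopHat2 2.0.13, Cufflinks 2.1.1 and Cuffdiff on TAIR10, per the submitters' processing notes, which name no settings. The authors deposited 1 pooled FPKM per genotype and gene, the log2 change of pan over wild type without a pseudocount, a test statistic (a score, not used here) and a p-value with its q-value. Genes were called at q under 0.05, and recomputing the Benjamini-Hochberg q-values over the 19789 tested rows gave a largest difference of 5.25e-07. No values per library are in the table, so depth is unknown, and the limma fit planned for such values was not run. p-values rest on samples labelled biological replicates.

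The members and lists were chosen with earlier results of these data known. Named are all members, from each list the called genes or else the most abundant one, and the 3 genes nearest to AGL42. LHW, a stele gene, shares its row with another gene and was left out. A gene of the auxin list is not reported here, so no count or median over that list is given. Gene models, strands and sequences come from RefSeq TAIR10.1; 63.8% of 32218 table rows share an exact end with a RefSeq transcript there. Coordinates of genes are those of the table, written 1-based. The lowest measurable level is the 0.1 percentile of FPKM times transcript length above 0. Coding sequences were aligned with Biopython 1.88 and q-values recomputed with statsmodels 0.14.6; the adjustment and centring were tested on simulated data.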

Additional observations from a re-analysis of the deposited data

Results flagged for a closer look

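Among the members that the authors left without a test, 3 were listed higher in pan than in wild type, which stands outside the comparisons above. In the authors' deposited table AGL19 was at 0.220 FPKM in pan and 0 in wild type, ANR1 at 0.198 FPKM in pan and 0.122 FPKM in wild type, and AGL71 at 0.0237 FPKM in pan and 0 in wild type. The worth of about 1 fragment was 0.0286 FPKM for AGL19, 0.0314 FPKM for ANR1 and 0.0385 FPKM for AGL71 in wild type, so the value of AGL71 lies below that worth.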

How the results depend on the processing

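A pseudocount added to both values cannot turn the sign of a change, and centring on the median of all tested genes (-0.17) or median-of-ratios scaling moves all genes alike and by less than the smallest change of the 5 tested members (-0.30 for AGL17), so an unturned sign says nothing of stability. The size of the changes depended on the pseudocount: with 5 FPKM added, the log2 change was -1.94 for AGL42, -1.11 for SOC1 and -1.17 for AGL12. The median over the 5 tested members was -2.27, -1.89 and -1.11 with pseudocounts of 0.1, 1 and 5, -2.16 with centring and -2.38 with median-of-ratios scaling. At q under 0.01, 1 member (AGL42) and 1 other MIKCC gene (PI) were called lower. At q under 0.1 the counts were 3 and 6. The share of all tested genes called was computed only at q under 0.05. The counts at other settings therefore show only how the calls move. With q recomputed over genes with a mean of at least 1 FPKM they were 3 and 4, the fourth being MAF5 (q = 0.0469). No MIKC* gene and no MIKCC gene higher in pan was called at any of these thresholds. The log2 changes of AGL72, AGL14 and ANR1 rest on levels below 1 FPKM and shrank to -0.17, -0.29 and 0.09 with a pseudocount of 1. No paired analysis was possible because the table holds 1 pooled value per genotype; for the same reason no library could be left out. Which pooled levels rest on single libraries, and how many fragments lie behind them, is unknown.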
